A study of Homo sapiens with 30 samples.

Results

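CHLA10, a human Ewing sarcoma cell line, was profiled by RNA sequencing after 20 days of unbroken exposure to BMS-986158, a small molecule that blocks the bromodomains of the bromodomain and extra-terminal (BET) proteins. The labels call cells kept in the drug for that long persister cells. The libraries were taken by their sample titles alone, 3 of treated cells and 3 of cells given the solvent DMSO as vehicle in the 20-day arm, which makes 6 of the 30 libraries of the series. All 6 carry the genotype label EWS::FLI1, the fusion of an RNA-binding protein with an ETS transcription factor that drives this bone and soft tissue tumour. Treated cells received BMS-986158 at 5 nM, were split when confluent, and had their drugged medium renewed every 72 hours while they did not grow. How long the vehicle cells of this arm had vehicle is not stated. Nor is it stated whether replicates were separate cultures, so variation among them may be technical. The p-values rest on the spread within all 10 groups of the series, pooled, and not on these 6 libraries alone. Both groups come from 1 line in 1 medium. CHLA10 cells given 5 nM BMS-986158 or vehicle for 3 days, and A673 cells, a second line labelled EWS::FLI1, given either for 20 days, served as comparisons with 3 libraries a group.

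BET proteins, such as BRD2 and BRD3, bind acetylated histones at promoters and enhancers and help to bring in P-TEFb, the kinase complex of CDK9 and a cyclin T that releases RNA polymerase II from its pause. HEXIM1 holds P-TEFb in an inactive store, and its transcript is widely used as a sign that a BET inhibitor has reached its target. EWS::FLI1 binds GGAA repeats and ETS sites, where it switches on a tumour programme, and it keeps many mesenchymal genes low.

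Levels are counts scaled to a library of 1000000 (CPM), always in the order of replicates 1, 2 and 3, and CPM of different genes are not compared, since they are not scaled by length. A change is the log2 ratio of BMS-986158 to vehicle ± its standard error, from edgeR's quasi-likelihood test over all 16713 genes that passed the filter on low counts. A gene is said to rise or fall where its Benjamini-Hochberg adjusted p was under 0.05. The treated libraries held 25116060 to 26322159 counts and the vehicle libraries 17388302 to 20483810 counts, so the groups differ in depth. Mitochondrially encoded genes made up 0.995% to 2.24% of the treated and 1.71% to 2.48% of the vehicle libraries.

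The line was checked against its markers. CD99, the surface protein used to diagnose this tumour, was read at 1906, 1753 and 1356 CPM in treated and 1535, 1322 and 1256 CPM in vehicle libraries. All 8 Ewing sarcoma markers passed the filter, and their summed level was 5291, 5198 and 3071 CPM under treatment against 6780, 6689 and 5058 CPM under vehicle. Vehicle replicate 3 lay below treated replicates 1 and 2, so the groups overlapped, and treated replicate 3 was the lowest library. Markers of other lineages were scarce. Blood markers summed to at most 0.0398 CPM under treatment and 0.460 CPM under vehicle, with CD3E and HBB at 0 in all 6 libraries. Epithelial markers summed to 1.67 to 3.82 CPM against 7.42 to 10.5 CPM with KRT5 at 0, and skeletal muscle markers to 1.79 to 2.82 CPM against 3.27 to 5.69 CPM with MYOG at 0. Endothelial markers summed to 1.83 to 2.09 CPM under treatment and 0.749 to 1.50 CPM under vehicle.

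Replicate 3 stood apart from replicates 1 and 2 in both groups. The first principal component, with 64.1% of the variance, separated treated from vehicle libraries, and the second, with 16.6%, separated replicate 3 of both groups from the rest. In both groups alike, 290 genes were at least 2-fold higher and 149 at least 2-fold lower in replicate 3 than the mean log2 CPM of replicates 1 and 2. Replicate 3 of both groups deviated together within this arm, while replicates 1 and 2 could not be matched by number. The main tests were not paired. Values with the replicate number as a block, or without replicate 3, stand beside some of the results.

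**Figure D1:**
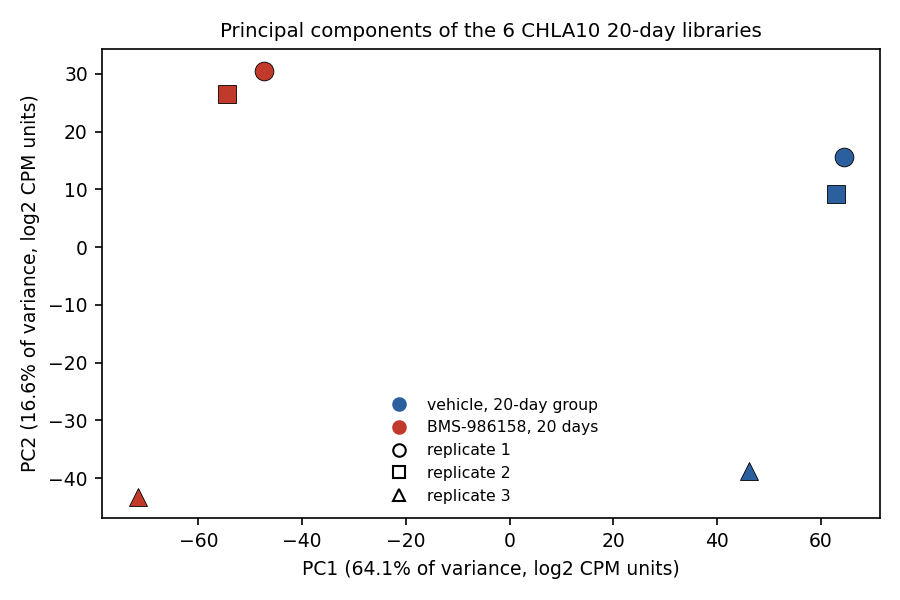
Principal components of log2 CPM in the 6 libraries. Each point is 1 library, the horizontal axis is PC1 (64.1% of variance) and the vertical axis PC2 (16.6%), colour gives the group and the marker shape the replicate. Treated libraries lie at negative PC1 values and vehicle libraries at positive ones, and replicate 3 of each group lies at negative PC2 values.

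After 20 days of BMS-986158 many genes stood away from vehicle. Of 16713 genes, 2754 rose (16.5%) and 2873 fell (17.2%), 33.7% in all. At least 2-fold changes were reached by 804 genes that rose (4.81%) and 1511 that fell (9.04%), and at least 4-fold changes by 1076 genes (6.44%). Of these, 775 genes (4.64%) fell at least 4-fold and 301 (1.80%) rose at least 4-fold. The vehicle and treated values did not overlap for 3509 genes (21.0%) that were higher and 3709 (22.2%) that were lower under treatment. Of the 5627 calls, 3414 (60.7%) held whichever single library was left out. With the spread taken from these 6 libraries alone 4096 genes were called, 3906 of them also called here in the same direction. The counts given for gene lists are to be read against the 16.5% of all genes that rose and the 17.2% that fell, and a share near these says nothing particular about a list.

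The highest rises included several genes of nerve cells. ATCAY (ENSG00000167654, chr19:3879864-3928079), which encodes caytaxin, a protein of neurons, stood at 22.4, 15.3 and 74.0 CPM under treatment and 0.235, 0.850 and 1.25 CPM under vehicle, a change of 5.60 ± 0.56, adjusted p = 3.39e-08. KIF5C (ENSG00000168280, chr2:148875250-149026759), a kinesin motor heavy chain of axonal transport, stood at 18.8, 23.5 and 87.8 CPM against 1.22, 0.425 and 1.71 CPM, a change of 5.30 ± 0.50, adjusted p = 3.51e-08. All treated libraries were far above all vehicle libraries for both genes, and treated replicate 3 was the highest of the 6. MAP2 (ENSG00000078018, chr2:209424058-209734118), a microtubule protein of dendrites, was at 25.8, 32.9 and 31.1 CPM against 2.35, 1.32 and 0.910 CPM, a change of 4.27 ± 0.31, adjusted p = 4.83e-11, with the treated replicates close to each other. OSBPL6, an oxysterol-binding protein family member, was at 29.9, 29.7 and 34.7 CPM against 1.22, 0.897 and 2.28 CPM, a change of 4.45 ± 0.23, adjusted p = 1.54e-13. PRKAR2B, a regulatory subunit of protein kinase A, was at 37.5, 40.8 and 58.5 CPM against 4.46, 5.38 and 4.78 CPM (3.22 ± 0.16, adjusted p = 7.14e-14). Each of these genes had a treated level several times its vehicle level in every replicate. The 15 genes with the highest rises by rule changed by 3.13 to 5.60 on the log2 scale.

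The deepest falls included contractile, neurogenic and keratin genes. ACTG2 (ENSG00000163017, chr2:73892314-73919865), the gamma actin of smooth muscle, dropped to 2.14, 1.81 and 2.61 CPM from 66.0, 77.9 and 214 CPM under vehicle, a change of -5.77 ± 0.52, adjusted p = 1.97e-08. NSG2, a neuronal vesicle protein, was at 0.894, 0.554 and 0.204 CPM against 54.3, 41.0 and 15.1 CPM, a change of -6.04 ± 0.63, adjusted p = 2.01e-07. TFAP2B, a transcription factor of neural crest and sympathetic nerve cells, was at 1.48, 0.665 and 0.285 CPM against 65.6, 54.4 and 29.6 CPM, a change of -5.93 ± 0.72, adjusted p = 1.28e-06. For these 3 genes the groups were far apart, and for NSG2 and TFAP2B replicate 3 was lowest in both groups. NEUROD6, a neurogenic transcription factor, was at 1.28, 0.924 and 0.163 CPM against 31.7, 23.0 and 16.6 CPM, a change of -4.89 ± 0.40, adjusted p = 1.24e-09. KRT17, a keratin, changed by -6.06 ± 0.51, adjusted p = 5.36e-09, but it has near-identical copies that the counting could mix with it, so this value is uncertain. The 15 deepest falls by the same rule ran from -6.06 to -4.00.

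**Figure D2:**
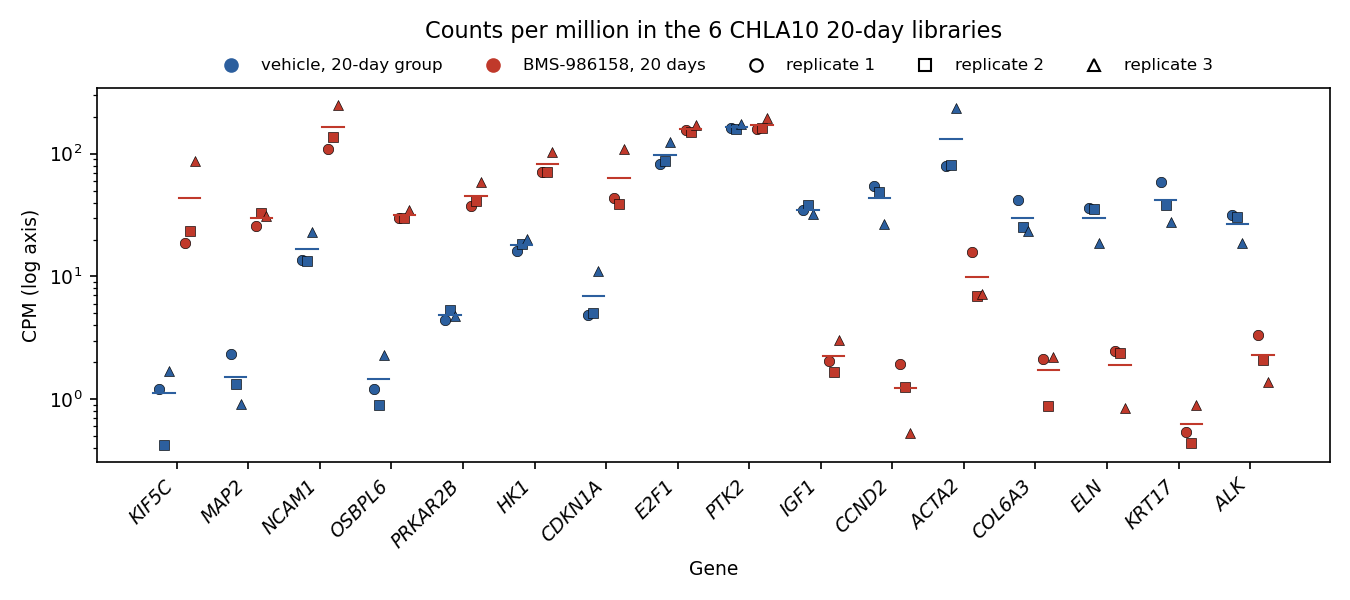
CPM (log axis) of the named genes in each of the 6 libraries. Each point is 1 library, blue for vehicle and red for BMS-986158, with the marker shape giving the replicate. KIF5C and MAP2 lie higher in each treated library than in each vehicle library, CCND2 and ACTA2 lie lower, and PTK2 overlaps.

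By the difference in CPM, the largest rises were those of abundant transcripts. FTL, the ferritin light chain that stores iron, went from 1472, 1393 and 1998 CPM under vehicle to 3065, 4229 and 5334 CPM, a change of 1.38 ± 0.18, adjusted p = 8.25e-07. It has many processed pseudogenes, so reads may be split between them. IGFBP2, a secreted binding protein of insulin-like growth factors, was at 1745, 1470.0 and 2277 CPM against 575, 431 and 667 CPM, a change of 1.72 ± 0.18, adjusted p = 5.37e-08. GAPDH, a glycolytic enzyme often used as a reference gene, was at 1889, 1805 and 2081 CPM against 1258, 1161 and 1423 CPM, a change of 0.59 ± 0.12, adjusted p = 0.000492. None of these 3 genes had overlapping groups. Outside this ranking by CPM, ATP1B1, a beta subunit of the sodium pump, rose from 3.99, 2.83 and 8.93 CPM to 19.0, 22.7 and 58.3 CPM (2.69 ± 0.40, adjusted p = 2.08e-05).

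Part of the markers of BET inhibition were raised after 20 days. Of 9 markers, 5 rose and 2 fell, with a median change of 0.66 where the median of all genes was -0.02. No member fell without treated replicate 3 or vehicle replicate 1 or 2, or with these 6 libraries alone, and 1 fell without treated replicate 1 or 2, while 5 or 6 rose in each fit without 1 library. At 3 days, where 14.0% of all genes rose and 15.7% fell, 8 of the same 9 rose and none fell, with a median of 2.51. The difference between the effects was called lower at 20 days for 5 of them and higher for none, beside 2.97% of all genes called lower. HEXIM1 was at 137, 159.6 and 177 CPM in treated and 104, 101 and 95.7 CPM in vehicle libraries, a change of 0.66 ± 0.11, adjusted p = 5.41e-05 against 1.06 at 3 days. Treated libraries were above all vehicle libraries, and the 2 effects on HEXIM1 did not pass the test of their difference (adjusted p = 0.137). SESN3, a stress-induced sestrin, was at 129, 146 and 92.5 CPM against 22.4, 23.8 and 12.5 CPM, a change of 2.64 ± 0.25, adjusted p = 1.68e-08. SERPINI1, the serine protease inhibitor neuroserpin, was at 9.53, 10.8 and 9.82 CPM against 2.81, 2.60 and 1.88 CPM, a change of 2.04 ± 0.30, adjusted p = 6.54e-06. Both stood clear of vehicle in every library. The effect on SESN3 was lower at 20 than at 3 days, but that difference depended on single libraries. It was lost in 7 of 12 fits that left out 1 library, and with limma-voom.

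The histone members of these markers were not called higher at 20 days, though other histone genes were. Of 16 histone genes with polyadenylated transcripts, 7 rose and 1 fell at 20 days (median 0.36), beside 16.5% and 17.2% of all genes. Leaving out 1 library gave 6 to 8 that rose. At 3 days 9 of the 16 rose and none fell (median 0.60). H2AC6, a histone H2A gene whose polyadenylated transcript rose at 3 days (change 2.51, adjusted p = 7.99e-07), was at 5.79, 7.80 and 6.40 CPM under treatment and 16.2, 11.5 and 5.69 CPM under vehicle at 20 days. Treated libraries lay within the vehicle range, the change was -0.75 ± 0.28, adjusted p = 0.0419, and the call was lost without treated replicate 1 or 3, without vehicle replicate 1 or 2, with a replicate block and with these 6 libraries alone. The difference between its 20-day and 3-day effects was -3.25 ± 0.41, adjusted p = 0.00017. H2BC5 (20-day change 0.40 ± 0.30, adjusted p = 0.331) and H2BC21 (0.74 ± 0.34, adjusted p = 0.102) also had lower effects at 20 than at 3 days, by -1.97 ± 0.44, adjusted p = 0.0101 and -2.12 ± 0.51, adjusted p = 0.0156. The difference for H2BC21 was lost without 20-day vehicle replicate 1 or 2. Histone genes have near-identical copies, so their values are uncertain. The level of the vehicle libraries also differed between the arms: mean vehicle CPM was lower at 20 than at 3 days for none of the 9 markers, with a median ratio of 2.36 against 1.04 over all genes, while mean treated CPM was lower at 20 days for 6 of 9. Those ratios are a description across libraries and were not tested.

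Of the genes of BET proteins, BRD2 rose and BRD3 did not pass. BRD2 was at 400.2, 424 and 406 CPM against 314, 325 and 302 CPM under vehicle, a change of 0.39 ± 0.09, adjusted p = 0.00181. BRD3 changed by 0.08 ± 0.09, adjusted p = 0.507. CDK9, the kinase of P-TEFb, rose by 0.31 ± 0.08, adjusted p = 0.00475. In all, 4 of 15 genes of the BET and P-TEFb machinery rose and none fell. MYC, the transcription factor gene that BET inhibitors lower in many blood cancers, was at 369, 365 and 335 CPM under treatment and 474, 418 and 402 CPM under vehicle. The groups did not overlap, the change was -0.28 ± 0.10, adjusted p = 0.0328, and the call was lost without treated replicate 2 or 3, without vehicle replicate 1 or 2, without replicate 3 of both groups and with these 6 libraries alone.

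Genes that EWS::FLI1 activates were lower, while the transcripts that make up the fusion did not pass the test. FLI1 was at 74.6, 74.2 and 75.7 CPM in treated and 73.7, 77.4 and 77.5 CPM in vehicle libraries (-0.03 ± 0.09, adjusted p = 0.87), and EWSR1 changed by 0.02 ± 0.11, adjusted p = 0.919. The counts do not tell the fusion's reads from those of the intact EWSR1 and FLI1 genes. Of 27 activated targets, 17 fell and none rose, beside 17.2% of all genes that fell, and their median change was -0.73. Leaving out 1 library at a time gave 14 to 17 that fell. The list is drawn from knowledge of this tumour and was set with earlier results of these data known.

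Among these targets, IGF1 (ENSG00000017427, chr12:102395874-102481744), the growth factor ligand on which Ewing sarcoma cells are known to lean, fell the most. It was at 2.06, 1.66 and 3.02 CPM under treatment against 34.7, 38.0 and 32.1 CPM under vehicle, a change of -3.96 ± 0.22, adjusted p = 4.19e-13. No treated library came near any vehicle library. PAPPA, a protease that frees insulin-like growth factors from their binding proteins, was at 11.9, 11.2 and 5.26 CPM against 79.5, 63.4 and 60.5 CPM, a change of -2.84 ± 0.26, adjusted p = 1.38e-08. GLI1, the transcription factor at the end of the Hedgehog pathway, was at 0.739, 0.591 and 0.367 CPM against 3.05, 4.67 and 5.01 CPM, a change of -2.88 ± 0.44, adjusted p = 1.46e-05. The groups stayed apart for both genes. NKX2-2, a homeobox gene used in diagnosis, was at 0.506, 0.444 and 0.245 CPM against 1.88, 1.98 and 1.25 CPM (-2.09 ± 0.48, adjusted p = 0.00156). LIPI, a lipase found in few normal tissues, was at 27.0, 18.6 and 7.66 CPM against 73.7, 74.1 and 44.4 CPM (-1.85 ± 0.25, adjusted p = 3.96e-06), and STEAP1, a metalloreductase of the cell surface, at 48.1, 46.5 and 16.7 CPM against 114, 116 and 79.9 CPM (-1.48 ± 0.27, adjusted p = 0.000211). In each of these 3 genes treated replicate 3 was the lowest library. NR0B1, a nuclear receptor that is a classic target of the fusion, was at 188, 187 and 94.8 CPM against 144, 138 and 133 CPM, overlapped between groups and did not pass (0.18 ± 0.31, adjusted p = 0.707). CD99 did not pass either (0.29 ± 0.12, adjusted p = 0.0638), and with a replicate block its change of 0.28 passed (adjusted p = 0.0239). Of 20 genes that the fusion is known to repress, 4 rose and 4 fell. The count that rose was 0 without treated replicate 3, 1 without vehicle replicate 1 or 2, and 7 without treated replicate 2.

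Genes of contraction and of elastic fibres went down. Of 16 smooth muscle contractile genes 10 fell and none rose, with a median change of -1.64, and of 18 genes of elastic fibres and their crosslinking 10 fell and none rose, with a median of -1.35. Leaving out 1 library at a time gave 8 to 11 and 10 to 12 genes that fell. ACTA2 (ENSG00000107796, chr10:88935074-88991339), the alpha actin of smooth muscle and myofibroblasts, was at 15.8, 6.91 and 7.22 CPM under treatment and 79.9, 81.1 and 235 CPM under vehicle, a change of -3.72 ± 0.42, adjusted p = 4.75e-07. MYLK, the kinase that triggers smooth muscle contraction, was at 5.41, 5.47 and 4.69 CPM against 36.9, 36.3 and 40.0 CPM, a change of -2.86 ± 0.22, adjusted p = 1.58e-10. Vehicle replicate 3 stood high for ACTA2, and no treated library reached any vehicle library for either gene. SMTN, smoothelin, was at 54.7, 62.0 and 71.0 CPM against 40.4, 40.1 and 71.2 CPM and did not pass (0.31 ± 0.16, adjusted p = 0.149); with a replicate block it did (0.35, adjusted p = 0.0389). In RNA from a whole culture, fewer cells of a kind and less RNA per cell cannot be told apart.

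ELN, which encodes elastin, was at 2.49, 2.37 and 0.856 CPM under treatment and 36.4, 35.5 and 18.8 CPM under vehicle, a change of -3.98 ± 0.51, adjusted p = 3.13e-06. MFAP4, a glycoprotein of elastic microfibrils, was at 64.9, 59.6 and 44.4 CPM against 636, 454 and 368 CPM, a change of -3.11 ± 0.32, adjusted p = 1.25e-07. EMILIN1, a glycoprotein between elastin and microfibrils, was at 21.3, 10.5 and 8.93 CPM against 118, 99.5 and 102 CPM, a change of -2.97 ± 0.20, adjusted p = 2.43e-11. For each of these 3 genes no treated library came near the vehicle range. MFAP5 had 0 counts over the 3 treated libraries and 30 over the vehicle libraries, at least 12.9-fold lower when the group with none is set to 3 counts in all, a bound that covers counting error only. LOX, the enzyme that crosslinks collagen and elastin, was at 82.0, 52.1 and 71.4 CPM against 261, 270.3 and 253 CPM, a change of -1.93 ± 0.52, adjusted p = 0.00676.

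Collagens and laminins fell in part. Of 26 collagen chains tested, 10 fell and 2 rose (median -0.65), and of 11 laminin chains 5 fell and 1 rose. Leaving out 1 library gave 8 to 13 collagen chains and 2 to 4 laminin chains that fell, with 2 laminin chains without vehicle replicate 1 and 3 without treated replicate 1 or 2 or vehicle replicate 3. No laminin chain rose without treated replicate 3 or vehicle replicate 1 or 2, and 4 collagen chains rose without treated replicate 2. COL6A3, a chain of the microfibrillar collagen VI, was at 2.14, 0.887 and 2.20 CPM against 41.8, 25.1 and 23.3 CPM under vehicle, a change of -4.11 ± 0.43, adjusted p = 4.31e-08. COL3A1, the fibrillar collagen of elastic tissues, was at 136, 74.4 and 41.4 CPM against 422, 360.1 and 576 CPM, a change of -2.43 ± 0.33, adjusted p = 6.26e-06. LAMB3, a chain of an epithelial laminin, was at 1.59, 1.26 and 2.49 CPM against 16.2, 16.2 and 13.1 CPM, a change of -3.10 ± 0.29, adjusted p = 6.5e-09. For these 3 chains the groups lay apart, with treated replicate 3 lowest for COL3A1. The 2 chains of collagen I differed: COL1A1 changed by -1.64 ± 0.28, adjusted p = 8.03e-05 and COL1A2, at 212, 194 and 74.5 CPM against 328, 249 and 277 CPM, did not pass (-0.83 ± 0.38, adjusted p = 0.104). COL14A1, a fibril-associated collagen, rose (2.30 ± 0.66, adjusted p = 0.00755).

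The transcript of focal adhesion kinase, the kinase named in the series title, did not pass the test. PTK2, its gene, was at 159, 161 and 196 CPM in treated and 161, 159.6 and 174 CPM in vehicle libraries, with overlapping groups (0.06 ± 0.09, adjusted p = 0.632). Of 26 genes of the kinase and its adaptors, 5 rose and 8 fell. TLN2, talin 2, which couples integrins to actin, rose to 72.4, 92.3 and 82.6 CPM from 25.7, 26.1 and 21.2 CPM, a change of 1.76 ± 0.16, adjusted p = 1.73e-09. LIMS2, an adaptor of the integrin-linked kinase complex, fell to 4.16, 3.36 and 4.04 CPM from 18.6, 18.1 and 23.0 CPM, a change of -2.37 ± 0.52, adjusted p = 0.00112. TNS3, a tensin that links integrins to actin, was at 6.22, 3.62 and 5.22 CPM against 24.5, 19.7 and 21.9 CPM (-2.13 ± 0.37, adjusted p = 5.68e-05), and TNS1, another tensin, changed by -1.04 ± 0.20, adjusted p = 0.000267. All 4 of these genes kept the groups apart. PARVB, beta-parvin, a partner of the same integrin-linked kinase, was at 0.156, 0.185 and 0.163 CPM against 1.36, 1.42 and 0.740 CPM (-2.77 ± 0.49, adjusted p = 6.16e-05).

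Of 16 integrin subunits tested, 5 rose and 2 fell. ITGB3, the beta subunit of the vitronectin receptor, went from 0.0938, 0.142 and 0.0569 CPM to 0.817, 0.887 and 1.59 CPM, a change of 3.39 ± 0.73, adjusted p = 0.000647. ITGA2, the alpha subunit of a collagen receptor, went from 0.516, 0.472 and 0.740 CPM to 2.61, 1.59 and 4.40 CPM, a change of 2.31 ± 0.42, adjusted p = 9.05e-05. ITGB5, a second beta partner of the alpha-v subunit, fell from 125, 127 and 93.0 CPM to 29.3, 23.1 and 51.5 CPM, a change of -1.73 ± 0.26, adjusted p = 2.04e-05. The groups lay apart for each of these 3 subunits. The count that rose was 2 without treated replicate 3 or vehicle replicate 1 and 3 without vehicle replicate 2, and 1 subunit fell without treated replicate 2 or vehicle replicate 1 or 3. FN1, fibronectin, the ligand of several of these receptors, was at 1123, 1285 and 5465 CPM against 722, 610.0 and 1782 CPM, with treated replicate 3 far above the rest. Its change of 1.34 ± 0.43, adjusted p = 0.0186 was lost without treated replicate 3, without vehicle replicate 1 or 2, in the 12 CHLA10 libraries and in these 6 alone.

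Genes of the nerve cell's skeleton and of its vesicles rose in the same libraries. Of 23 genes of neuronal cytoskeleton and transport, 13 rose and 2 fell (median 1.21), and of 30 genes of synaptic vesicles and release, 13 rose and 4 fell (median 0.81), beside 16.5% of all genes that rose. Leaving out 1 library gave 10 to 12 and 10 to 14 that rose, and without vehicle replicate 1 a single cytoskeleton gene fell. NEFL, the light neurofilament, was at 4.90, 3.58 and 4.16 CPM under treatment against 0.704, 0.472 and 0.455 CPM, a change of 2.93 ± 0.35, adjusted p = 6.22e-07. MAP1B, a microtubule protein of growing axons, was at 118, 108 and 198 CPM against 21.6, 20.2 and 53.8 CPM, a change of 2.15 ± 0.33, adjusted p = 2.72e-05. TUBA1A, the alpha tubulin of developing neurons, was at 830.2, 672 and 1290.0 CPM against 358, 353 and 497 CPM, a change of 1.21 ± 0.18, adjusted p = 7.47e-06. None of the 3 overlapped between groups. GAP43, a growth cone protein, had 21 counts over the treated and 0 over the vehicle libraries, at least 5.44-fold higher by the same bound, and its call was lost without treated replicate 3 (adjusted p = 0.11) and without replicate 3 of both groups (adjusted p = 0.168). TUBB3, the tubulin used as a neuron marker, was at 0.506, 0.665 and 4.04 CPM against 0.375, 0.519 and 0.967 CPM, and its call (1.49 ± 0.53, adjusted p = 0.03) rested on treated replicate 3: without it the change was -0.04 and no longer positive, and it was also lost without vehicle replicate 1 or 2, with a replicate block, with limma-voom, in the 12 CHLA10 libraries and in these 6 alone.

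SYP, synaptophysin of the vesicle membrane, was at 13.3, 15.4 and 13.3 CPM under treatment and 4.74, 5.95 and 3.98 CPM under vehicle, a change of 1.51 ± 0.19, adjusted p = 3.77e-07. SYN1, the vesicle protein synapsin, was at 4.36, 5.32 and 8.68 CPM against 1.27, 1.23 and 1.82 CPM, a change of 2.09 ± 0.28, adjusted p = 1.28e-06. Every treated library was above every vehicle library for both. Other vesicle genes went down: SV2B, a vesicle glycoprotein, fell from 36.5, 27.7 and 16.3 CPM to 3.35, 1.63 and 1.06 CPM, a change of -3.73 ± 0.36, adjusted p = 7.51e-09. SYT4, a synaptotagmin, changed by -3.29 ± 0.60, adjusted p = 0.000139.

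Of 21 transcription factors of nerve cells tested, 1 rose and 4 fell, the latter near the 17.2% of all genes, and among those that fell were TFAP2B and NEUROD2 (-3.02 ± 0.64, adjusted p = 0.000667). The count that fell was 7 without treated replicate 3 and 8 without replicate 3 of both groups. Among 23 neural adhesion genes 4 rose and 6 fell, and 2 rose without vehicle replicate 2. NCAM1 (ENSG00000149294, chr11:112961247-113278436), the neural cell adhesion molecule also known as CD56, was at 110.2, 137 and 248 CPM under treatment against 13.6, 13.4 and 23.0 CPM, a change of 3.31 ± 0.27, adjusted p = 1.38e-09. OPCML, a lipid-anchored neural adhesion protein, went the other way, 7.66, 11.0 and 10.4 CPM against 74.3, 99.0 and 50.5 CPM, a change of -2.95 ± 0.21, adjusted p = 1.07e-10. NTM, neurotrimin of the same family, was at 1.63, 0.776 and 2.49 CPM against 13.4, 11.1 and 11.5 CPM (-2.88 ± 0.37, adjusted p = 6.97e-07). The rise of NCAM1 and the falls of OPCML and NTM held in every library. ADCY1, the adenylyl cyclase of neurons, was at 22.8, 31.3 and 33.2 CPM against 2.11, 2.03 and 4.72 CPM (3.32 ± 0.30, adjusted p = 2.82e-09). Of 30 axon guidance genes 10 rose and 6 fell, and of 30 ion channels and pumps 7 rose and 5 fell. SEMA3A, a secreted guidance cue, was at 24.5, 27.8 and 47.6 CPM against 7.51, 7.41 and 12.3 CPM (1.88 ± 0.25, adjusted p = 1.55e-06).

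Of the 6 neuron markers, 3 rose (MAP2, SYP and TUBB3) and none fell, and the sum of the 6 was 46.5, 57.7 and 55.4 CPM under treatment against 12.8, 14.9 and 13.6 CPM under vehicle. Only 2 rose without treated replicate 3 or vehicle replicate 1 or 2, and without replicate 3 of both groups. The same count of 2 was found with a replicate block and with these 6 libraries alone. Schwann cell and neural crest genes went down as a sum, from 879, 876.5 and 657 CPM to 545, 530.4 and 429 CPM, with 7 of 15 that fell and 1 that rose. FOXD3, a neural crest transcription factor, was at 0.506, 0.333 and 0.0815 CPM against 1.78, 1.70 and 1.25 CPM (-2.34 ± 0.36, adjusted p = 1.4e-05). S100B, a glial calcium-binding protein, had 0 counts over the treated and 27 over the vehicle libraries, at least 11.6-fold lower. Of 21 mesenchymal genes 4 rose and 5 fell, near the shares of all genes. Without treated replicate 3 or vehicle replicate 1 or 2, 2 of them rose, and 8 fell without treated replicate 3. PRRX1, a homeobox gene of limb mesenchyme, rose to 151, 132 and 171 CPM from 21.0, 19.0 and 43.0 CPM (2.46 ± 0.26, adjusted p = 9.57e-08). Of 11 bone and cartilage genes 1 rose and 3 fell, and 2 rose without treated replicate 2. ACAN, the cartilage proteoglycan, rose (5.30 ± 0.89, adjusted p = 7.49e-05), and SP7, the transcription factor of bone-forming cells, had 0 counts over the treated and 102 over the vehicle libraries, at least 43.7-fold lower.

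**Figure D3:**
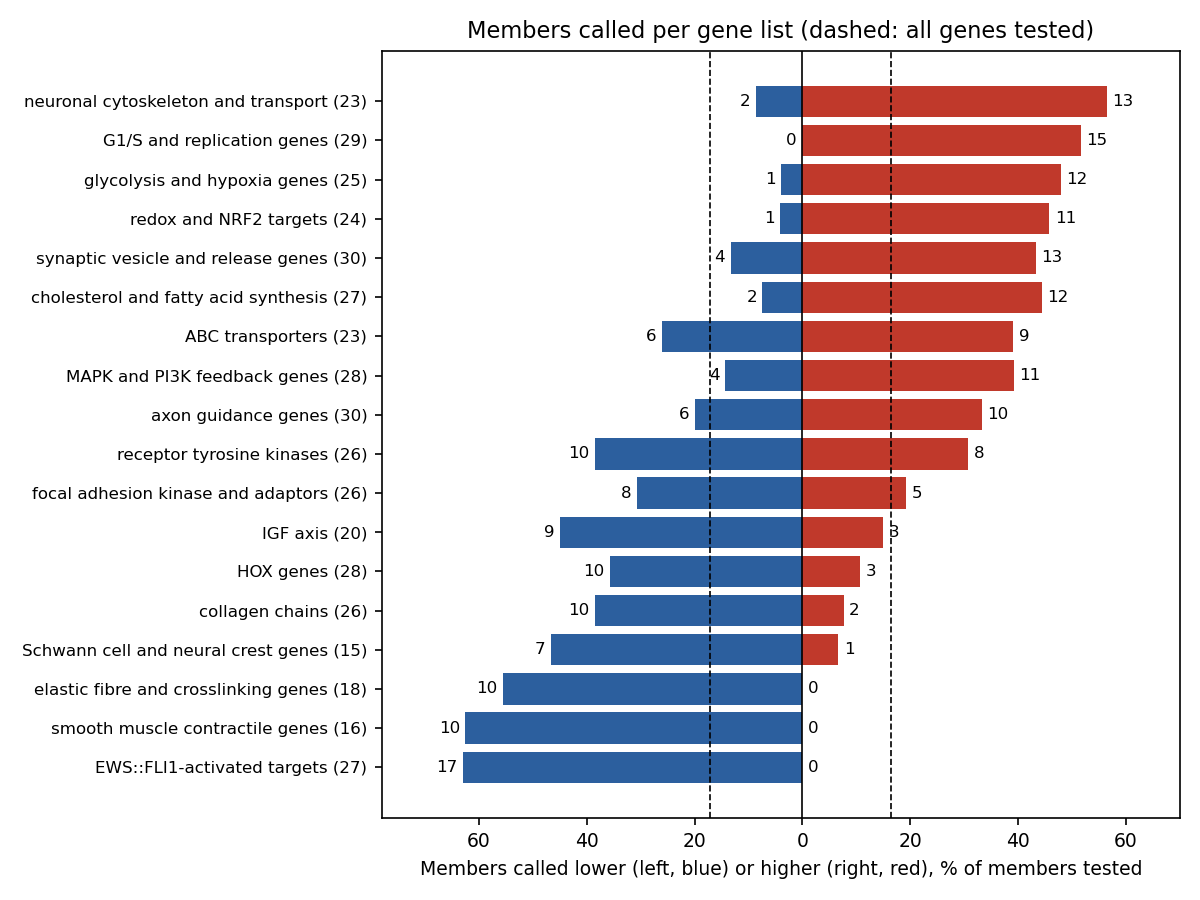
Share of each list's tested members called lower (blue, left) or higher (red, right) under BMS-986158 at 20 days in CHLA10, in percent, with the number tested in parentheses and the dashed lines at the shares of all genes (17.2% lower and 16.5% higher). G1/S genes lie on the right with no member on the left, and smooth muscle, elastic fibre and EWS::FLI1-activated genes lie on the left with no member on the right.

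Genes of DNA replication were higher in cells kept in the drug for 20 days than in vehicle cells. Of 29 genes of the G1/S transition and replication, 15 rose and none fell, with a median of 0.31. At 3 days 20 of the same 29 fell and none rose, with a median of -0.40. The difference between the 2 effects, called for 3.35% of all genes in the upward direction, was called higher for 21 of the 29 and lower for none. Over all genes that upward count ran from 159 to 1117 when 1 library was left out. For E2F1 and PCNA the difference held in all 12 such fits, and for RRM2 it was lost in 9 of 12. The count that rose was 7 to 17 when 1 library was left out, 7 without vehicle replicate 1 and 8 without vehicle replicate 2, and 7 in these 6 libraries alone.

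Promoters of these genes are shown for E2F1 and PCNA because many of the list carry the letters that E2F factors bind. E2F factors switch on replication genes once the retinoblastoma protein lets go of them. The windows are the 250 bases before the annotated start in RefSeq on GRCh38.p14, printed 5′ to 3′ on the gene's strand, chr20:33686386-33686635 for E2F1 and chr20:5126623-5126872 for PCNA, both on the minus strand. Capitals mark TTTCCCGC, TTTGGCGC, TTTCGCGC or TTTGCCGC on either strand.
E2F1: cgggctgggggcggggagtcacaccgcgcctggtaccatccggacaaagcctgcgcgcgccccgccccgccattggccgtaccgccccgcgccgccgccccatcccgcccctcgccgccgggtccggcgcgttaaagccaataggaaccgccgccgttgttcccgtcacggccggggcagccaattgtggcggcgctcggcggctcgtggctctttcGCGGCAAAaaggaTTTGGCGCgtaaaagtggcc
PCNA: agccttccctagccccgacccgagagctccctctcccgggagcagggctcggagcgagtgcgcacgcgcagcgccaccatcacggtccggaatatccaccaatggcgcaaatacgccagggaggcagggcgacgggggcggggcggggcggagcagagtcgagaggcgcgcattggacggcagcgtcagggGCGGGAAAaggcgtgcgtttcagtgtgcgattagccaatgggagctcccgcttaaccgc
Such letters stood in 12 of the 26 promoters of the list that were matched (46.2%), in 1 of 22 of the G2/M list (4.55%) and in 2.79% of all 27305 promoters of that length. Of the 13 matched genes that rose, 7 held them. A match is a description of the sequence and not of binding.

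E2F1 (ENSG00000101412, chr20:33675683-33686404), the factor and itself a target of its family, was at 156, 151 and 173 CPM under treatment and 82.3, 87.6 and 125 CPM under vehicle, a change of 0.70 ± 0.13, adjusted p = 9.27e-05. PCNA, the sliding clamp of DNA polymerases, was at 324, 312 and 299 CPM against 217, 210.3 and 260.3 CPM, a change of 0.44 ± 0.11, adjusted p = 0.00243. RRM2, the small subunit of ribonucleotide reductase, was at 200.1, 232 and 322 CPM against 118, 129.5 and 174 CPM, a change of 0.84 ± 0.15, adjusted p = 0.00012. No treated library fell into the vehicle range for these genes, and vehicle replicate 3 was the highest vehicle library for each. SLBP, which binds histone transcripts in S phase, was at 226, 235 and 232 CPM against 136, 140.2 and 166 CPM (0.65 ± 0.13, adjusted p = 0.00021). The 3-day effects were -0.50 (adjusted p = 0.00336) for E2F1 and -0.29 (adjusted p = 0.0436) for PCNA, and the differences of 20 minus 3 days were 1.20 ± 0.18, adjusted p = 0.000416 and 0.74 ± 0.16, adjusted p = 0.00607.

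The vehicle libraries of the arms are part of that contrast. Mean vehicle CPM was lower at 20 days than at 3 days for 29 of 29 G1/S genes, with a median ratio of 0.661, and mean treated CPM for 7 of 29, with a median ratio of 1.05. For E2F1 the means were 214.5 CPM under vehicle and 152 CPM under treatment at 3 days, and 98.4 CPM and 160.0 CPM at 20 days. Over all genes 44.6% had a lower mean vehicle CPM at 20 days. These ratios of levels describe the libraries, and their part in the difference was not tested.

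**Figure D4:**
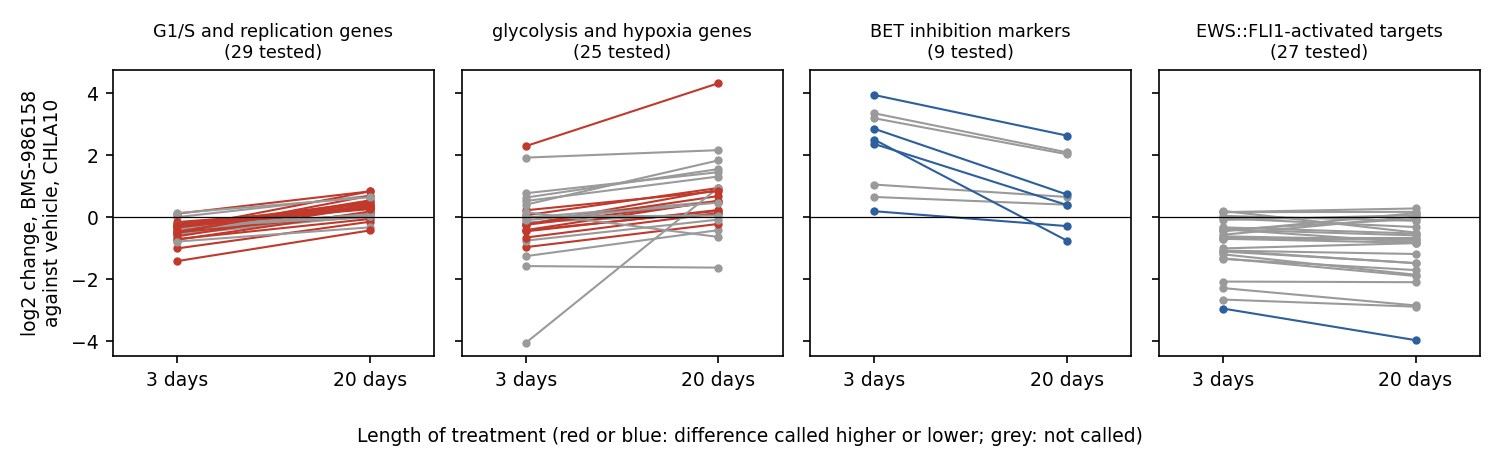
Change (log2) under BMS-986158 against vehicle at 3 and at 20 days in CHLA10, 1 panel per gene list and 1 line per gene, coloured red or blue where the difference of the effects was called higher or lower and grey where it was not. G1/S genes run from below 0 at 3 days (median -0.40) to above 0 at 20 days (median 0.31), and BET inhibition markers come down from a median of 2.51 to 0.66.

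Of 27 genes of G2 and mitosis 6 rose and none fell, beside 16.5% of all genes that rose. CENPA, the histone of centromeres, was at 52.8, 56.3 and 40.3 CPM against 32.8, 34.2 and 38.4 CPM (0.50 ± 0.14, adjusted p = 0.00757), and TTK, a spindle checkpoint kinase, at 90.9, 86.3 and 82.3 CPM against 62.4, 66.5 and 67.9 CPM (0.40 ± 0.11, adjusted p = 0.00572). MKI67, the proliferation marker, was at 479, 549 and 266 CPM against 329.6, 296 and 349 CPM. Treated replicates 1 and 2 were above all vehicle libraries and treated replicate 3 below them, and the gene did not pass (0.41 ± 0.23, adjusted p = 0.175). The count that rose was 3 without vehicle replicate 1, 2 without vehicle replicate 2, 10 without vehicle replicate 3 and 11 without replicate 3 of both groups.

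The D-type cyclins, which start the cycle with CDK4 and CDK6, did not move together. CCND2 (ENSG00000118971, chr12:4273772-4305350) was nearly lost, at 1.94, 1.26 and 0.530 CPM against 54.8, 49.0 and 26.9 CPM under vehicle, a change of -5.12 ± 0.54, adjusted p = 1.88e-07. CCND1, a target of EWS::FLI1 as well, was at 2468, 2483 and 1348 CPM against 3786, 3780.0 and 2905 CPM, a change of -0.73 ± 0.14, adjusted p = 0.000171, which was -0.49 without treated replicate 3 and was not called with these 6 libraries alone. CCND3 rose, 56.8, 52.9 and 74.6 CPM against 33.9, 28.7 and 34.3 CPM, a change of 0.93 ± 0.12, adjusted p = 8.63e-07. The groups lay apart for each of the cyclins. Of 17 genes of D-type cyclins, their kinases and inhibitors, 6 rose and 3 fell. CDKN1A, the inhibitor p21, was at 43.2, 39.0 and 108 CPM against 4.88, 5.00 and 11.1 CPM, a change of 3.20 ± 0.47, adjusted p = 1.96e-05, and CDKN2D, the inhibitor p19, at 17.9, 21.0 and 20.5 CPM against 6.57, 7.03 and 5.52 CPM (1.63 ± 0.14, adjusted p = 1.28e-09). H2AX, a histone that marks DNA breaks when phosphorylated, was at 421, 432 and 516 CPM against 164, 148 and 217 CPM (1.37 ± 0.14, adjusted p = 1.61e-08).

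Glycolysis and hypoxia genes were higher. Of 25, 12 rose and 1 fell, with a median of 0.52, against 3 that rose and 7 that fell at 3 days, and 11 of the differences between 20 and 3 days were called higher and none lower. Leaving out 1 library gave 11 to 14 that rose. The difference from 3 days was lost in 6 of 12 such fits for EGLN3 and in 7 for SLC2A1, and held in all for HK2. Mean vehicle CPM was lower at 20 than at 3 days for 17 of the 25 genes, with a median ratio of 0.823 against 1.04 over all genes. Mean treated CPM was lower for none, with a median ratio of 1.38. The part of these levels in the differences was not tested. Under low oxygen the HIF factors bind ACGTG letters in many of these genes, and 2 promoters of genes that rose are shown with these letters in capitals on either strand. They are 250-base RefSeq windows on GRCh38.p14, 5′ to 3′, chr4:185396591-185396840 (plus strand) for ANKRD37 and chr17:28576896-28577145 (minus strand) for ALDOC, and the palindrome CACGTG counts on both strands.
ANKRD37: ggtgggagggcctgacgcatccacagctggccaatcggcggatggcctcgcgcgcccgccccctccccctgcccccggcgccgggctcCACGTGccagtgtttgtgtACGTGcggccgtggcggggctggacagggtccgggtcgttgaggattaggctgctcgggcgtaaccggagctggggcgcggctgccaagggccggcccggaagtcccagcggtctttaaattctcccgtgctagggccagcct
ALDOC: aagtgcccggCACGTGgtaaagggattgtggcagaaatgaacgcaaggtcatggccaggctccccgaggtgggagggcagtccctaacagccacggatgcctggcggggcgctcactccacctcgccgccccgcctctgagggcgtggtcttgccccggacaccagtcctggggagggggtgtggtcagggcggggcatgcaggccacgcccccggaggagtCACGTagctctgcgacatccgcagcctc
ACGTG stood in 11 of the 22 matched promoters of the list and in 18.7% of all promoters, and in 6 of the 12 matched genes that rose.

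HK1 (ENSG00000156515, chr10:69269984-69401884), the hexokinase that takes glucose into glycolysis in most tissues, was at 70.3, 71.3 and 104 CPM under treatment and 16.1, 18.2 and 20.1 CPM under vehicle, a change of 2.17 ± 0.13, adjusted p = 6.54e-13. HK2, the inducible hexokinase, was at 63.8, 66.2 and 52.4 CPM against 30.4, 32.1 and 35.6 CPM, a change of 0.89 ± 0.11, adjusted p = 3.86e-07. SLC2A1, the glucose transporter GLUT1, was at 66.3, 62.2 and 60.8 CPM against 30.6, 26.7 and 40.6 CPM, a change of 0.95 ± 0.18, adjusted p = 0.000143. All 3 were above vehicle in every library. EGLN3, an oxygen-sensing prolyl hydroxylase that HIF induces, was at 3.85, 5.40 and 8.15 CPM against 0.422, 0.142 and 0.284 CPM, a change of 4.33 ± 0.38, adjusted p = 1.38e-09. PDK1, a kinase that inhibits pyruvate dehydrogenase, was at 19.8, 15 and 29.3 CPM against 6.80, 6.47 and 8.48 CPM, a change of 1.56 ± 0.21, adjusted p = 1.32e-06. ANKRD37, a HIF-induced ankyrin repeat protein, was at 1.71, 2.11 and 2.89 CPM against 0.610, 0.519 and 0.740 CPM (1.84 ± 0.38, adjusted p = 0.000383). Treated replicate 3 was the highest library for these 3 genes. ALDOC, the aldolase of brain, was at 6.92, 4.77 and 5.14 CPM against 1.97, 1.94 and 2.22 CPM (1.46 ± 0.36, adjusted p = 0.00222), a call that limma-voom did not make. HK2 had a higher effect at 20 than at 3 days (1.13 ± 0.15, adjusted p = 0.000191). Only ADM, the vessel-widening peptide adrenomedullin, fell in the list (-1.62 ± 0.44, adjusted p = 0.00618), and not without vehicle replicate 3 or with these 6 libraries alone.

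Genes of cholesterol and fatty acid synthesis, 12 of 27 risen and 2 fallen, depended on single libraries. INSIG1, the sterol sensor of the endoplasmic reticulum, was at 277, 89.8 and 77.0 CPM under treatment and 35.2, 35.5 and 64.4 CPM under vehicle, a change of 1.72 ± 0.33, adjusted p = 0.00031. Without treated replicate 1 its change was 0.91, and with these 6 libraries alone it was not called (adjusted p = 0.0645). Treated replicate 1 stood far above all other libraries, and the summed level of the list was 8715 CPM in it against 4999 and 4779 CPM in treated replicates 2 and 3 and 4369, 4620 and 5688 CPM under vehicle. Without treated replicate 1, 7 genes rose, without vehicle replicate 1, 6, and with these 6 libraries alone 1. The count that fell was 4 without treated replicate 1 and 1 without vehicle replicate 1. SC5D, a late enzyme of the pathway, went down in every library, 229, 183 and 205 CPM against 334, 405 and 449 CPM (-0.95 ± 0.10, adjusted p = 5.53e-08).

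Of 24 genes of redox control, 11 rose and 1 fell, and 3 fell without treated replicate 3. GCLC, the rate-limiting enzyme of glutathione synthesis, was at 42.2, 51.1 and 56.9 CPM against 25.5, 26.2 and 25.9 CPM (0.95 ± 0.12, adjusted p = 3.13e-07). HMOX1, the haem-degrading enzyme that many stresses induce, fell to 0.972, 1.59 and 3.67 CPM from 6.75, 7.08 and 9.73 CPM (-1.92 ± 0.42, adjusted p = 0.000738). Groups did not overlap for either gene. Of 25 genes of the amino acid stress response 4 rose and 5 fell, near the shares of all genes, and 2 rose without treated replicate 3 or vehicle replicate 1. ASNS, asparagine synthetase, rose (1.50 ± 0.41, adjusted p = 0.00765), and SLC7A5, a transporter of large amino acids, fell (-1.69 ± 0.28, adjusted p = 7.04e-05). Of 19 chaperones of the endoplasmic reticulum 6 rose and none fell, and 3 rose without treated replicate 3 or vehicle replicate 1 or 2. HYOU1, a chaperone of that list, changed by 0.93 ± 0.18, adjusted p = 0.000228.

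Receptors and ligands of growth factors were rearranged rather than moved one way. Of 26 receptor tyrosine kinases tested, 8 rose and 10 fell, 8 and 9 to 11 when 1 library was left out. ALK, a receptor of developing neurons, fell from 31.4, 30.6 and 18.9 CPM to 3.35, 2.11 and 1.39 CPM, a change of -3.56 ± 0.40, adjusted p = 1.84e-07. PDGFRB, a receptor of platelet-derived growth factor, fell from 77.0, 68.2 and 66.3 CPM to 26.6, 23.9 and 28.1 CPM, a change of -1.43 ± 0.15, adjusted p = 2.47e-08. The groups were apart for both. FGFR2, a fibroblast growth factor receptor, rose from 2.11, 1.89 and 1.59 CPM to 9.45, 9.20 and 5.14 CPM, a change of 2.08 ± 0.23, adjusted p = 5.59e-08. KDR, the main receptor of VEGF, rose from 0.188, 0.142 and 0.683 CPM to 1.52, 1.85 and 1.79 CPM (2.39 ± 0.50, adjusted p = 0.000541), and EGFR, the receptor of epidermal growth factor, from 14.5, 9.39 and 21.4 CPM to 36.4, 34.1 and 25.2 CPM (1.08 ± 0.27, adjusted p = 0.00263). These stood above vehicle in all treated libraries. Members of 1 family went together: FGFR1, FGFR2, FGFR3 and FGFR4 all rose. FGFR1 changed by 0.89 ± 0.17, adjusted p = 0.00024, and by 0.59 without treated replicate 3.

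In the insulin-like growth factor axis 3 of 20 genes rose and 9 fell. Besides the ligand IGF1 and the protease PAPPA, the stanniocalcins, which block that protease, moved apart. STC2 fell from 87.6, 115 and 113 CPM to 8.28, 7.39 and 4.08 CPM, a change of -3.99 ± 0.29, adjusted p = 3.32e-10, and STC1 rose from 1.55, 2.27 and 1.37 CPM to 9.33, 6.91 and 10.8 CPM, a change of 2.37 ± 0.22, adjusted p = 5.49e-09. IGF1R, the receptor, was at 55.1, 58.9 and 41.4 CPM against 56.0, 48.1 and 33.6 CPM and did not pass (0.17 ± 0.24, adjusted p = 0.624). Without replicate 3 of both groups 6 genes of the axis fell.

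Of 28 genes that report or restrain MAPK and PI3K signalling 11 rose and 4 fell, with 6 that rose without treated replicate 3. DUSP4, a phosphatase of MAP kinases, fell from 23.7, 33.0 and 27.1 CPM to 2.33, 1.33 and 2.89 CPM, a change of -3.68 ± 0.25, adjusted p = 1.36e-11. EGR1, an immediate early gene, was at 52.3, 47.6 and 333 CPM against 17.9, 12 and 58.0 CPM, with treated replicate 3 far above the others. Its change of 2.31 ± 0.61, adjusted p = 0.00548 was lost without that library, in the 12 CHLA10 libraries and in these 6 alone. BCL2L11, the death-promoting BIM, rose from 9.80, 9.44 and 11.1 CPM to 31.9, 33.5 and 48.1 CPM, a change of 1.90 ± 0.15, adjusted p = 2.32e-10. Of 15 BCL2 family genes 4 rose and 2 fell, and 1 fell without treated replicate 1 or vehicle replicate 1.

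In the WNT pathway 9 of 31 genes rose and 4 fell, and 2 fell without treated replicate 1 or 2 or vehicle replicate 1 or 2. LGR5, a stem cell receptor of R-spondins, rose from 0.235, 0.0472 and 0.341 CPM to 2.14, 2.62 and 8.36 CPM, a change of 4.40 ± 0.82, adjusted p = 0.000234. In the Hedgehog pathway, 2 of 12 rose, near the 16.5% of all genes, and 3 fell. A single gene of it rose without treated replicate 2 or 3 or vehicle replicate 2 or 3. GLI3, a factor that mostly represses, rose from 25.3, 21.7 and 52.2 CPM to 81.9, 84.1 and 112 CPM (1.49 ± 0.28, adjusted p = 0.000237), while PTCH1, the receptor and a target of the pathway, fell from 58.4, 58.8 and 61.8 CPM to 28.4, 31.3 and 26.3 CPM (-1.06 ± 0.13, adjusted p = 3.61e-07). For all 3 genes the groups were apart.

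In the TGF-beta and BMP pathway 2 of 30 genes rose and 9 fell, beside 16.5% and 17.2% of all genes. The count that rose was 7 without treated replicate 1, 0 without treated replicate 3 and 1 without vehicle replicate 1 or 2. Of the ligands among those that fell, 3 are given. TGFB3 fell from 43.5, 46.4 and 30.3 CPM to 9.45, 6.65 and 5.10 CPM, a change of -2.50 ± 0.18, adjusted p = 4.78e-11. TGFB2 fell from 55.6, 65.5 and 199.8 CPM to 14.7, 10.9 and 31.1 CPM, a change of -2.50 ± 0.61, adjusted p = 0.0032. INHBA, which makes activin A, fell from 6.94, 7.13 and 7.74 CPM to 0.972, 0.850 and 1.88 CPM (-2.56 ± 0.38, adjusted p = 7.44e-06). Treated replicate 3 was the highest treated library for TGFB2 and INHBA, and all treated libraries stayed below vehicle. Of 20 YAP and TAZ targets 1 rose and 5 fell, and 3 rose without treated replicate 1 or with a replicate block and 2 without vehicle replicate 3. Of 28 HOX genes tested, the position code genes of the body axis, 3 rose and 10 fell (median -0.62), with 7 that fell without replicate 3 of both groups and 5 that rose without vehicle replicate 3. HOXC6 fell from 39.7, 33.8 and 37.5 CPM to 16.5, 17.3 and 16.1 CPM (-1.15 ± 0.13, adjusted p = 8.42e-08), with the replicates of each group close together.

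Among 23 ABC transporters, pumps that include the classic drug efflux proteins, 9 rose and 6 fell. In each fit that left out 1 library 9 rose, and 3 fell without vehicle replicate 2. ABCB1 (ENSG00000085563, chr7:87503633-87713323), the multidrug pump P-glycoprotein, was at 1.01, 1.11 and 5.05 CPM under treatment and 0, 0 and 0.0569 CPM under vehicle. It had 180 counts over the treated libraries and 1 over the vehicle libraries, a ratio of 140.0 with a 95% counting interval of 24.8 to 5560.0, and its test gave adjusted p = 4.38e-05. All treated libraries were above vehicle, with replicate 3 the highest. ABCA7, a lipid transporter, rose from 8.16, 7.74 and 9.56 CPM to 28.4, 30.7 and 28.1 CPM (1.78 ± 0.15, adjusted p = 9.83e-10), and ABCA1, the cholesterol exporter, fell from 9.52, 6.47 and 5.97 CPM to 1.24, 2.22 and 0.938 CPM (-2.31 ± 0.59, adjusted p = 0.00341).

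Of 27 interferon-stimulated genes 5 rose and 5 fell, near the shares of all genes, and 1 and 1 without replicate 3 of both groups. A total of 2 rose without treated replicate 1 or 3 or vehicle replicate 1 or 2 and 3 without vehicle replicate 3, and 2 fell without treated replicate 2 or 3 or vehicle replicate 1 and 3 without vehicle replicate 2. IFI6, a mitochondrial protein that interferon induces, was at 174, 35.9 and 106 CPM against 13.8, 8.83 and 6.60 CPM, a change of 3.43 ± 0.72, adjusted p = 0.000815. Each treated library was above vehicle, and treated replicate 1 was the highest and replicate 2 the lowest of the treated libraries. ALDH1L1, a folate enzyme of the aldehyde dehydrogenase family, changed by -3.41 ± 0.34, adjusted p = 1.17e-08.

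The spread among the treated libraries was wide for a part of the genes. In 191 called genes the 3 treated libraries spanned over 2 log2 units, and in 118 the vehicle libraries did. The 6 widest by rule were TRNP1, ENPEP, PAX7, BHLHE40, STAC2 and EGR1. PAX7, a transcription factor of muscle stem cells that Ewing sarcoma also expresses, was at 56.8, 45.9 and 7.38 CPM against 226, 224 and 95.4 CPM, a change of -2.31 ± 0.52, adjusted p = 0.00161. ENPEP, an aminopeptidase of the cell surface, was at 98.1, 98.7 and 11.1 CPM against 339, 326 and 199.5 CPM, a change of -2.05 ± 0.44, adjusted p = 0.000988. For both, replicate 3 was the lowest library of its own group, and neither was called with these 6 libraries alone. TRNP1, a nuclear protein of neural progenitors, was at 13.5, 28.2 and 204 CPM against 11.0, 14.7 and 21.9 CPM, a change of 2.37 ± 0.57, adjusted p = 0.00261, with treated replicate 1 inside the vehicle range and treated replicate 3 far above it. That call was lost without treated replicate 3, with limma-voom, in the 12 CHLA10 libraries and in these 6, and a replicate block brought the change to 1.51. BHLHE40, a clock and hypoxia transcription factor, was at 20.7, 9.87 and 70.4 CPM against 3.38, 3.59 and 18.4 CPM, with vehicle replicate 3 inside the treated range (2.00 ± 0.62, adjusted p = 0.0157). Its call was lost without treated replicate 3, without vehicle replicate 1 or 2, in the 12 CHLA10 libraries and in these 6.

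Most of what was called at 20 days went the same way as at 3 days where both were called. Of 4975 genes called at 3 days (29.8%) and 5627 at 20 days, 2875 were called in both, 2783 of them in the same direction, 1265 up and 1518 down. That is 49.5% of the 20-day calls and 55.9% of the 3-day calls. Another 92 went opposite ways. The arms share no libraries. The effect itself differed between the times for 1057 genes (6.32%), 560 higher (3.35%) and 497 lower (2.97%) at 20 days. That count rests on single libraries: it was 211 and 149 without 20-day vehicle replicate 1, 159 and 127 without replicate 2 and 1117 and 879 without replicate 3 of the same group. It also moved by over 1.5 times in at least 1 direction without 20-day treated replicate 3 (315 lower), 3-day treated replicate 1 (230 and 186) or 2 (343 and 266), and 3-day vehicle replicate 1 (366 and 237), 2 (275 and 196) or 3 (283 and 235). With a replicate block it was 897 and 713, of which 1015 genes were called in both fits.

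Differences that held whichever library was left out include those of OSBPL6, CCND2, OPCML, SC5D and STC2. The effect on OSBPL6 was 2.40 at 3 days and 4.45 at 20 days, a difference of 2.06 ± 0.32, adjusted p = 0.000712. That on CCND2 was -1.98 and -5.12, a difference of -3.14 ± 0.68, adjusted p = 0.00951, though limma-voom did not call it. OPCML had -0.63 at 3 days and -2.95 at 20 days, a difference of -2.32 ± 0.28, adjusted p = 0.000109. For all 3 the change was larger at 20 than at 3 days. SC5D was not called at 3 days (-0.09) and was at 20, with a difference of -0.86 ± 0.14, adjusted p = 0.0012, and STC2 had a difference of -1.86 ± 0.38, adjusted p = 0.00544. CCND3, not called at 3 days (0.12), had a difference of 0.80 ± 0.17, adjusted p = 0.00566. MAP1B, whose 3-day change was 0.26 (adjusted p = 0.593), had a difference of 1.89 ± 0.46, adjusted p = 0.0181, lost without 20-day treated replicate 3, 20-day vehicle replicate 1 or 2, 3-day treated replicate 1 or 3-day vehicle replicate 2.

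The response of CHLA10 was set beside that of A673 at the same time. The lines were grown in different media, so line and medium cannot be told apart. In A673 3298 genes rose (19.7%) and 3329 fell (19.9%), 39.7% in all. Of 2983 genes called in both lines, 2523 went the same way (44.8% of the CHLA10 calls and 38.1% of the A673 calls) and 460 opposite ways, 198 of them up in CHLA10. The effects differed for 3666 genes (21.9%), 1762 higher (10.5%) and 1904 lower (11.4%) in CHLA10, so 48.1% were higher, or 59.3% where only library size was used for scaling.

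**Figure D5:**
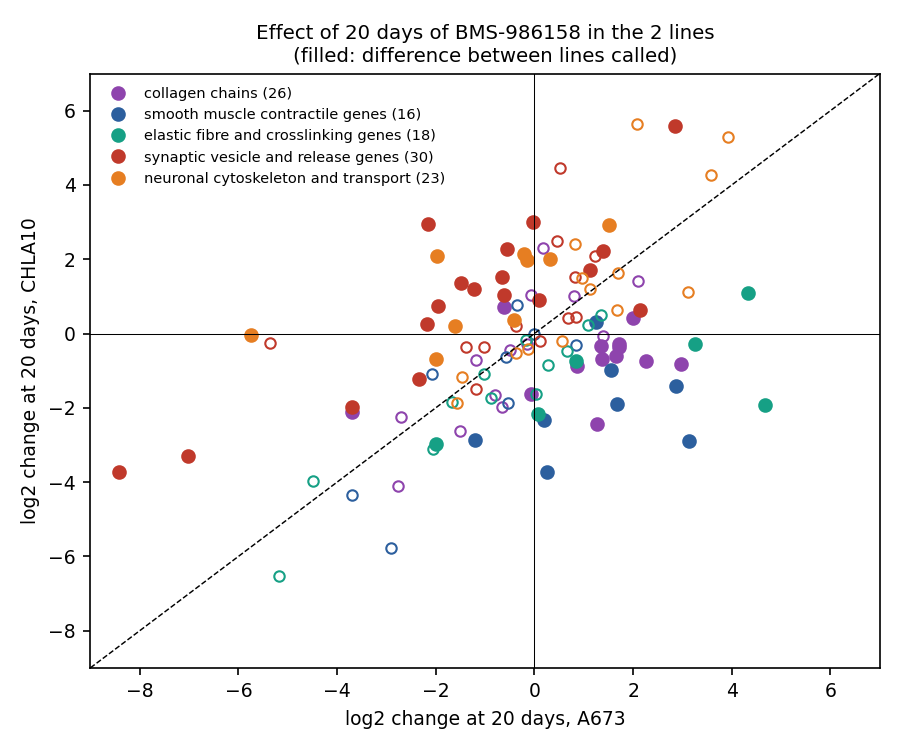
Change (log2) after 20 days of BMS-986158 in A673 (horizontal) and CHLA10 (vertical) for genes of collagen, smooth muscle, elastic fibre, synaptic and neuronal cytoskeleton lists, 1 point per gene, filled where the difference between lines was called. Smooth muscle and collagen genes lie mostly below the diagonal, where LOX has a difference of -6.60, and synaptic genes mostly above it.

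The contractile, matrix and nerve genes set the lines apart. Of 16 smooth muscle genes 8 had a lower effect in CHLA10 and none a higher one, and of 26 collagen chains 11 were lower and 2 higher. ACTA2 did not pass in A673 (0.26) and fell in CHLA10, a difference of -3.98 ± 0.56, adjusted p = 2.61e-05. COL1A2 rose in A673 (2.97) and did not pass in CHLA10, a difference of -3.80 ± 0.56, adjusted p = 4.22e-05. LOX rose in A673 by 4.67 and fell in CHLA10, a difference of -6.60 ± 0.79, adjusted p = 4.64e-06. These are opposite or unequal responses of the same genes at the same dose and time. Synaptic genes stood the other way: 17 of 30 had a higher effect in CHLA10 and 1 a lower one, and in A673 8 rose and 13 fell. SYP fell in A673 (-0.66), a difference of 2.18 ± 0.25, adjusted p = 5.55e-07, and ADCY1 did as well (-0.86), a difference of 4.18 ± 0.41, adjusted p = 3.12e-08. Neuronal cytoskeleton genes had 9 of 23 higher and none lower.

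Cell cycle and sugar genes differed too. Of 29 G1/S genes 21 had a higher effect in CHLA10 and none a lower one, and in A673 19 fell and 2 rose. E2F1 fell in A673 (-0.35), a difference of 1.05 ± 0.18, adjusted p = 9.78e-05. HK1 did not pass in A673 (0.23), a difference of 1.94 ± 0.17, adjusted p = 6.34e-09, and ENO2, the enolase of neurons, fell there (-1.26) and rose in CHLA10 (1.32 ± 0.21, adjusted p = 3.45e-05), a difference of 2.59 ± 0.31, adjusted p = 1.72e-06. Each of these differences held whichever library was left out. By contrast 17 of 27 EWS::FLI1-activated targets fell in CHLA10 and 18 in A673, and 4 differences were called higher and 4 lower. Not all of these held: the higher effect on NR0B1 in CHLA10 was lost in 10 of 12 fits that left out 1 library. IGF1 fell in both, with a change of -2.65 in A673, with a difference of -1.31 ± 0.29, adjusted p = 0.00171. FLI1 did not pass in A673 (-0.16). HEXIM1 rose there by 0.91, and its difference did not pass (adjusted p = 0.282). Of the 9 markers of BET inhibition, all 9 rose in A673 (median 1.98), against 5 that rose and 2 that fell in CHLA10 (median 0.66). The difference was called lower in CHLA10 for 5 of them and higher for none, beside 11.4% of all genes called lower. For H2BC21 it was lost without CHLA10 treated replicate 2 or CHLA10 vehicle replicate 1.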

How the data were processed

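Poly(A) RNA was read as pairs of 150 bases, per the labels' protocols. The authors deposited 1 table of unnormalized whole-number read counts for 33538 Ensembl genes in 30 libraries. The submitters' processing notes name FastQC, Trim Galore, STAR, DESeq2 and GRCh38. What counted the reads, with which strand setting and gene models, was not given in the sources used here. Genes that overlap, lie antisense or have near-identical copies are uncertain. Coordinates are GENCODE 29 on GRCh38, which held 33456 of the gene IDs.

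Counts entered edgeR 4.0.16 (R 4.3.3) after filterByExpr (16713 genes kept) and TMM scaling, as a robust quasi-likelihood fit of group means over all 30 libraries. The contrasts were BMS-986158 against vehicle at 20 days in CHLA10, this effect minus the 3-day effect, and minus the A673 effect. P-values were adjusted by Benjamini-Hochberg over all genes and called under 0.05. Standard errors were taken from the change and its F statistic. CPM used TMM-scaled library sizes. Setting genes with no counts in a group to a bound of 3 counts changed no list median. No pair of replicates looked like 1 library deposited again (lowest chi-square of a pair 2.161 per gene). All labels give batch 1. On simulated counts for the 20-day comparison, with 200 changed genes among 16713, 74% of those at a log2 change of 1 and 94% of those at 2 were called, with 10 false calls. The simulated libraries had no shared shift of replicate 3, and a far smaller part of the genes changed than was called in the data. The changed genes were also not drawn from those of lowest level, so these figures need not hold for the real libraries.

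The libraries, gene lists and named genes were chosen with earlier results of these data known. Named genes are the 15 highest and 15 lowest called (mean log2 CPM at least 2, groups apart), the 8 largest rises and falls in CPM, up to 5 called members per list with members that complete a pair or family, the 6 highest and lowest of each difference, the 6 widest treated ranges and a fixed set of 13 genes. PCNA, ENO2, ALDOC, SYN1, TUBA1A, MAP1B, COL1A1, COL1A2, SLC2A1, HK2, EGFR, FGFR1, PDGFRB, NR0B1, MKI67, CDK4, FN1, GCLC, SMTN, H2BC5 and H2BC21 were chosen after their values were seen. Some genes are not reported here. Replicate numbers come from the titles. Deviations from the group means correlated between same-numbered libraries at 0.199, 0.15 and 0.361 in the CHLA10 20-day arm. Across numbers, treated replicate 1 and vehicle replicate 2 gave 0.113, and treated replicate 2 and vehicle replicate 1 gave 0.152. Replicates 1 and 2 were thus not told apart by number. The main tests compare group means without pairing, and the replicate block was an alternative fit only. In CHLA10 at 3 days same-numbered libraries gave 0.032, 0.001 and 0.006, and in A673 at 20 days 0.16, -0.162 and 0.102. There the libraries share only a number. Alternatives were other scalings (RLE, upper quartile, library size), other filters, DESeq2 1.42.0, limma-voom (limma 3.58.1), a replicate block, fewer libraries, the 50 most abundant genes left out, and stricter thresholds. Promoter windows are from RefSeq (GRCh38.p14). In 62.7% of 17393 checked, bases 6 to 25 after the start stood in a GENCODE transcript start. Other letters were searched as well. GGAAGGAA stood in 1 of 22 matched promoters of EWS::FLI1-activated targets, beside 2.99% of all promoters. In the cholesterol and fatty acid list TCACCCCAC stood in 1 of 20, beside 0.348%, and CCAAT in 12 of 20, beside 33.0%. Figures were drawn with matplotlib 3.10.9.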

Additional observations from a re-analysis of the deposited data

Results flagged for a closer look

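Genes are given here because a test of the difference between effects passed for them, and they are the 6 highest and 6 lowest by rule in each of the tests. Against the 3-day effect, the 20-day effect was higher for IFI6 (difference 3.28 ± 0.95, adjusted p = 0.0431), NCR3LG1, a ligand of natural killer cells (2.20 ± 0.38, adjusted p = 0.0015), and B4GALNT1, a ganglioside synthase (2.11 ± 0.37, adjusted p = 0.00193). It was also higher for OSBPL6 (2.06 ± 0.32, adjusted p = 0.000712), the laminin chain LAMA1 (2.03 ± 0.45, adjusted p = 0.0136) and the matrix protein tenascin C, TNC (1.99 ± 0.53, adjusted p = 0.0304). It was lower for TFAP2B (-3.48 ± 0.87, adjusted p = 0.0215), H2AC6 (-3.25 ± 0.41, adjusted p = 0.00017) and CCND2 (-3.14 ± 0.68, adjusted p = 0.00951). The others that were lower were PKHD1, a protein of kidney cilia (-2.87 ± 0.68, adjusted p = 0.0152), MGP, an inhibitor of calcification (-2.56 ± 0.60, adjusted p = 0.0165), and SELENOP, a selenium carrier (-2.53 ± 0.50, adjusted p = 0.00451). The effect on NCR3LG1 was -0.89 (adjusted p = 0.0118) at 3 days and 1.30 (adjusted p = 0.000447) at 20 days by edgeR, with opposite signs.

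Single libraries decided some of these. The difference for IFI6 was lost in 10 of 12 fits that left out 1 library, all but those without treated replicate 2 at 20 days or treated replicate 3 at 3 days. That for TNC was lost in 8 of 12, all but those without treated replicate 1 or 2 or vehicle replicate 3 at 20 days or treated replicate 3 at 3 days. That for TFAP2B was lost in 6 of 12: without treated replicate 3 or vehicle replicate 1 or 2 at 20 days, and without treated replicate 3 or vehicle replicate 2 or 3 at 3 days. LAMA1, PKHD1 and MGP lost it without 20-day vehicle replicate 2, PKHD1 also without 3-day treated replicate 3 and MGP also without 3-day treated replicate 1. The 20-day call of TNC itself (1.07 ± 0.38, adjusted p = 0.0329) was lost without treated replicate 3 or vehicle replicate 1 or 2. It was also lost without replicate 3 of both groups, without the low-count filter, in the 12 CHLA10 libraries and in these 6 alone. The 20-day call of LAMA1 (-0.88 ± 0.31, adjusted p = 0.0361) was lost without treated replicate 1 or 2 or vehicle replicate 1 or 2.

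Against A673 at 20 days, the effect in CHLA10 was higher for LGR5 (6.14 ± 0.95, adjusted p = 6.85e-05), TIAM1, an exchange factor of the GTPase RAC (5.30 ± 0.36, adjusted p = 1.15e-10), and the neuropeptide precursor VGF (5.11 ± 0.83, adjusted p = 0.000126). It was also higher for MAP7D2, a microtubule protein (4.93 ± 0.36, adjusted p = 1.73e-10), STAC2, an adaptor of calcium channels (4.43 ± 0.66, adjusted p = 4.2e-05), and CALCB, a calcitonin gene-related peptide (4.40 ± 0.73, adjusted p = 9.21e-05). It was lower for LOX (-6.60 ± 0.79, adjusted p = 4.64e-06), TGFB2 (-6.55 ± 0.96, adjusted p = 4.39e-05) and HCLS1, an actin regulator of blood cells (-5.81 ± 1.31, adjusted p = 0.00221). HCLS1 had 0 counts over the treated CHLA10 libraries and 14 over the vehicle libraries, so its fitted value depends on the prior count. The effect was also lower for LIMS2 (-5.68 ± 0.75, adjusted p = 8.44e-06), ADM (-5.35 ± 0.65, adjusted p = 3.94e-06) and ALDH1L1 (-5.03 ± 0.45, adjusted p = 8.39e-09). LGR5, VGF and STAC2 rose in CHLA10 and fell in A673, while LOX, TGFB2, LIMS2, ADM and ALDH1L1 fell in CHLA10 and rose in A673. These 12 differences held whichever of the 12 libraries was left out.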

How the results depend on the processing

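Counts of genes that rose and fell at 20 days in CHLA10 were within 1.5 times of 2754 and 2873 under every other scaling, filter, tool and set of libraries tried. They were 2009 and 2087 with these 6 libraries alone, and ran from 2101 to 2853 and from 2163 to 2786 without 1 library. At adjusted p under 0.01 they were 1825 and 1894, and at an absolute log2 change of at least 1, 804 and 1511. The difference from 3 days moved more: 118 higher and 111 lower at adjusted p under 0.01, 177 and 183 at an absolute log2 change of at least 1, 910 and 783 with DESeq2, and from 159 to 1117 and from 127 to 879 without 1 library. The replicate block gave 897 higher and 713 lower there. In the 20-day comparison it gave 2903 and 2976 and ended the calls of 5 of 325 named genes, among them H2AC6, WNT11 and TUBB3. The difference from A673 was 972 and 1112 at adjusted p under 0.01, 835 and 946 at an absolute log2 change of at least 1, and ran from 1434 to 2178 and from 1486 to 2075 without 1 library. Over the named genes and settings, 5990 of 6462 values kept their direction and side of the threshold, 451 lost the call, 20 gained it and 1 reversed: TUBB3, at -0.04 without treated replicate 3, whose values without 1 library ran from -0.04 to 1.94. With these 6 libraries alone 51 named genes lost the call. The causes were not tested. Depth limits genes of few counts, such as SP7, GAP43 and ABCB1, for which only bounds or wide intervals are given.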

Other observations

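Genes of secreted neuropeptides moved in both directions at 20 days in CHLA10. PENK, the precursor of enkephalins, was at 0.739, 1.26 and 1.14 CPM under treatment and 21.9, 19.7 and 19.4 CPM under vehicle, a change of -4.27 ± 0.27, adjusted p = 3.99e-12 by edgeR. UTS2, which encodes the vessel-constricting peptide urotensin, was at 4.94, 3.55 and 3.46 CPM against 61.1, 65.8 and 105 CPM, a change of -4.27 ± 0.36, adjusted p = 6.89e-09. CALCB, a calcitonin gene-related peptide, was at 80.4, 97.4 and 113 CPM against 323, 291 and 255 CPM, a change of -1.58 ± 0.20, adjusted p = 1.28e-06. PENK and UTS2 are among the 15 deepest falls. VGF, another neuropeptide precursor, was at 7.70, 1.92 and 15.8 CPM against 0.891, 0.614 and 1.82 CPM, a change of 2.96 ± 0.68, adjusted p = 0.0019, a call that limma-voom did not make. The groups were apart for all 4 genes.

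TIAM1, an exchange factor that activates RAC, was at 16.2, 16 and 18.7 CPM under treatment and 0.657, 0.472 and 0.228 CPM under vehicle, a change of 5.18 ± 0.29, adjusted p = 4.19e-13. Its treated replicates lay close together and above each vehicle library. NPNT, the integrin ligand nephronectin, was at 12.4, 14.1 and 38.8 CPM against 1.74, 1.37 and 1.02 CPM, a change of 3.97 ± 0.40, adjusted p = 1.54e-08. DHRS2, a short-chain dehydrogenase, was at 20.8, 22.8 and 71.1 CPM against 2.53, 2.83 and 2.56 CPM, a change of 3.85 ± 0.44, adjusted p = 3.02e-07. For NPNT and DHRS2, treated replicate 3 was the highest library. MYOM2, a protein of the muscle M-band, was at 1.98, 1.37 and 1.51 CPM against 45.4, 52.9 and 43.0 CPM, a change of -4.86 ± 0.31, adjusted p = 1.72e-11, with the groups apart.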
